A study of Mus musculus with 24 samples.

Results

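Mitochondrial chaperones and proteases were followed as 10 genes, namely *Hspd1*, *Hspe1*, *Hspa9*, *Trap1*, *Dnaja3*, *Lonp1*, *Clpp*, *Clpx*, *Yme1l1* and *Afg3l2*, listed by name. They are 10 of the 56884 genes in the count table, and all 10 were among the 13679 genes with enough counts to be tested. The cells were macrophages differentiated from bone marrow in culture with the growth factor M-CSF (BMDM) and came from 4 wild-type female C57BL/6J mice aged 9 weeks, and each mouse gave 1 library in each of 6 groups, 24 libraries in all. Naive BMDM received no cytokine, and the other groups received IL-4 and IL-13, each at 20 ng/ml, for 24 hours. Of these, 1 group received the cytokines alone, and the others were given an inhibitor 1 hour before the cytokines and then together with them. Tunicamycin (5 µg/ml) blocks N-linked glycosylation in the endoplasmic reticulum (ER), Sal003 (10 µM) blocks dephosphorylation of the translation factor eIF2α, and oligomycin (1 µM) blocks the mitochondrial ATP synthase. Oligomycin was used in 8 libraries, and ISRIB (1 µM), which blunts the consequences of eIF2α phosphorylation, was added in 4 of them. Titles and descriptions place ISRIB in the 4 libraries named Oligo, whereas the library names place it in the 4 named Oli_ISR. Both readings are kept here, and the groups are called Oligo and Oli_ISR after their library names. The mice are inbred, carry no transgene and gave all groups of cells. The 4 values of a group hold the spread between mice together with that between cultures and libraries. With 1 library of each mouse in a group, these parts cannot be told apart. No group received an inhibitor without the cytokines, so an effect of an inhibitor on naive BMDM was not measured.

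Most mitochondrial proteins are made in the cytosol, threaded through the inner membrane unfolded and folded again in the matrix. The matrix Hsp70, mortalin, encoded by *Hspa9*, pulls the chain in and hands it to the chaperonin barrel of Hsp60 and its Hsp10 lid. Damaged or surplus proteins are degraded by ATP-driven proteases, LONP1 and CLPXP in the matrix and the membrane-bound YME1L and AFG3L2. In mammalian cells, stress inside mitochondria raises transcripts of several of these genes, a response called the mitochondrial unfolded protein response, which runs partly through eIF2α phosphorylation and the transcription factors ATF4, ATF5 and CHOP. The same eIF2α pathway, the integrated stress response, is also entered from the ER, which has chaperones of its own.

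The libraries held from about 16238700 to 26725300 reads assigned to genes, and the 10 genes had between 212 and 22562 counts each in any library. Macrophage markers (8 of 8 in the fit) summed to 31093 to 36949.7 CPM (the counts of a gene scaled to a common library total) in naive BMDM, 11426 to 13836 CPM with IL-4/IL-13, 16442 to 18062 CPM with tunicamycin, 13831 to 15562 CPM with Sal003, 8782 to 9611 CPM in the Oligo group and 13445 to 15349 CPM in the Oli_ISR group, and no marker was at 3 counts or fewer throughout a group. Of 8 neutrophil and precursor markers, 7 were in the fit. All 8 summed to 51.3 to 88.1 CPM in naive BMDM, 37.6 to 63.3 CPM with IL-4/IL-13, 11.1 to 15.1 CPM with Sal003, 24.0 to 29.97 CPM in the Oli_ISR group, 5.00 to 7.91 CPM in the Oligo group and 5.24 to 6.43 CPM with tunicamycin. The groups with the higher summed level of the 10 genes thus mostly had the lower neutrophil sum. Stromal markers (4 of 4) summed to 17.2 to 130.5 CPM in naive BMDM, 14.3 to 82.3 CPM with IL-4/IL-13, 3.41 to 23.6 CPM with tunicamycin, 7.62 to 46.9 CPM with Sal003, 5.40 to 53.2 CPM in the Oligo group and 7.98 to 51.5 CPM in the Oli_ISR group. The sums cover all listed markers, also those outside the fit. Dendritic markers (4 of 5 in the fit) summed to at most 11.1 CPM, mast cell and basophil markers (1 of 4) to at most 2.07 CPM and lymphocyte markers (0 of 5) to at most 0.724 CPM in a library. The part of these other cells in the results was not tested, and in bulk RNA fewer cells of a type and less RNA per cell cannot be told apart.

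Together the 10 genes took 579.7 to 613 CPM of the counts in naive BMDM, 821 to 871 CPM after IL-4/IL-13, 1021 to 1094 CPM with Sal003, 1316 to 1417 CPM in the Oli_ISR group, 2059.9 to 2131 CPM in the Oligo group and 2103 to 2164 CPM with tunicamycin. The ranges of the groups did not overlap, except those of tunicamycin and Oligo. Most of the difference was carried by *Hspa9*, whose mean rose from 139.7 CPM in naive BMDM to 1063 CPM with tunicamycin. The genes did not move as a block. *Hspa9*, *Dnaja3* and *Lonp1* changed by more than 2.5-fold with tunicamycin and in the Oligo group. *Trap1* was highest with the cytokines alone, and the group means of *Clpx* in CPM stayed within 1.19-fold of each other.

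**Figure D1:**
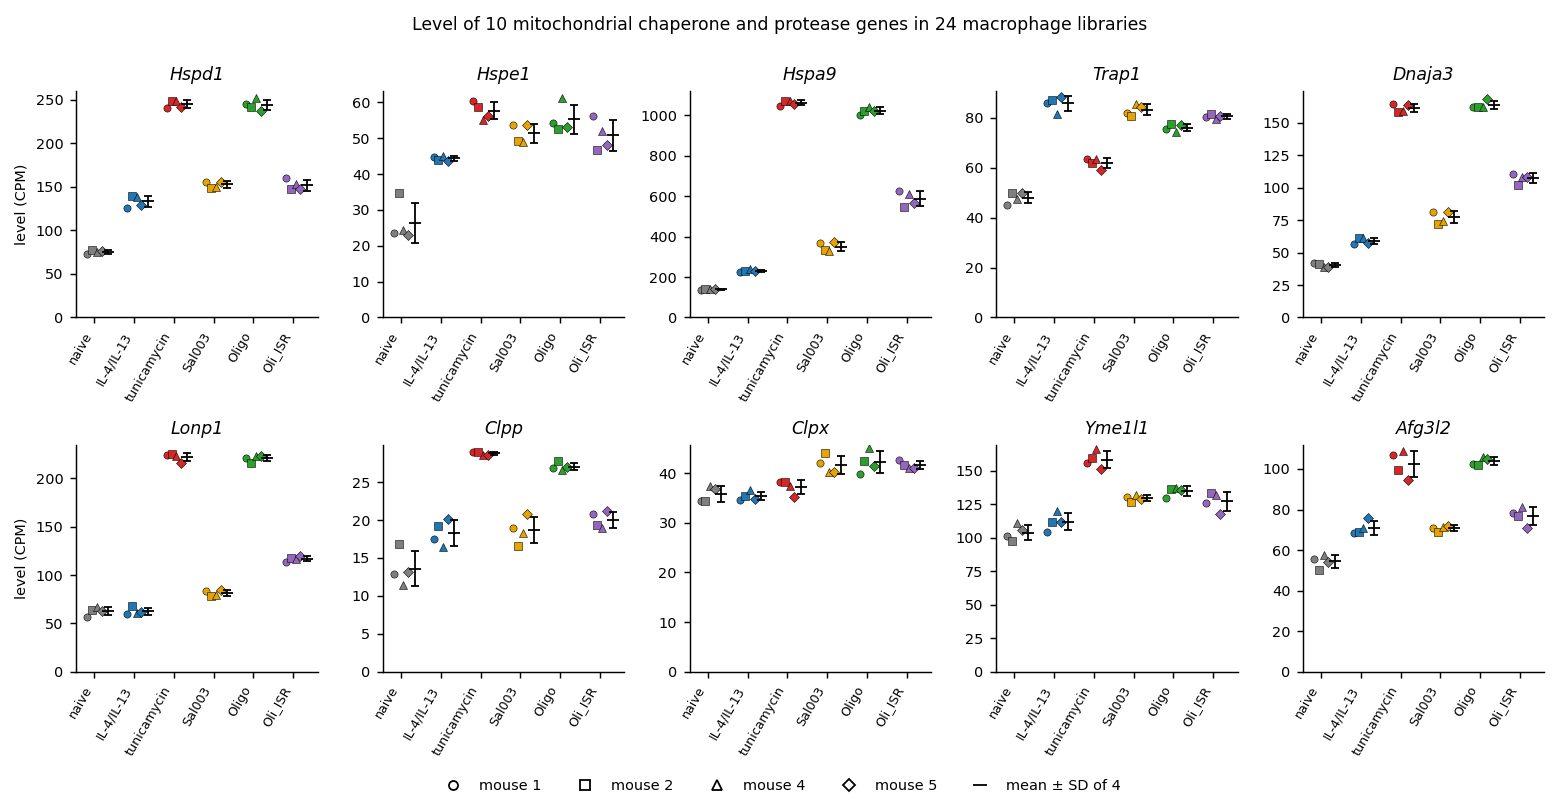
Level of each gene in every library, in CPM on a linear axis that starts at 0, with 6 groups on the horizontal axis, 1 symbol per mouse, and the mean ± SD of 4 libraries beside the points. *Hspa9* stands at 1003 to 1043 CPM in the Oligo group and 1047 to 1074 CPM with tunicamycin, *Lonp1* is level between naive and IL-4/IL-13, and *Trap1* is highest with the cytokines alone.

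*Hspa9* encodes mortalin, the Hsp70 of the matrix and the motor of protein import. Its level in mice 1, 2, 4 and 5 was 135, 143, 142 and 139 CPM in naive BMDM, 223, 229, 240.1 and 229 CPM with IL-4/IL-13 and 368, 336, 329.5 and 373 CPM with Sal003. In the same order it was 627, 549, 613 and 565 CPM in the Oli_ISR group, 1003, 1024, 1043 and 1022 CPM in the Oligo group and 1047, 1074, 1073 and 1057 CPM with tunicamycin. No 2 of the 6 groups overlapped, although the tunicamycin and Oligo groups came closest. The cytokines raised *Hspa9* (log2 fold change 0.72, SE 0.047, adjusted *P* = 1.10e-12). Added to the cytokines, tunicamycin raised it 4.61-fold (log2 fold change 2.21, SE 0.048, adjusted *P* = 1.02e-22), and the Oligo group was 4.44-fold above the cytokines alone (log2 fold change 2.15, SE 0.048, adjusted *P* = 2.42e-21). The rise was 2.56-fold in the Oli_ISR group and 1.53-fold with Sal003, with adjusted *P* = 2.31e-17 and 4.82e-11. Every neighbouring pair in the order naive, IL-4/IL-13, Sal003, Oli_ISR, Oligo passed the test, and only tunicamycin and Oligo, at the top, did not (difference 0.05 on the log2 scale, 95% interval -0.039 to 0.15).

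*Dnaja3* encodes a J-domain protein of the matrix, of the kind that stimulates the ATPase of Hsp70. Its values were 42.4, 41.4, 39.3 and 39.0 CPM in naive BMDM, 56.8, 61.2, 61.0 and 57.2 CPM with IL-4/IL-13 and 81.6, 72.0, 74.5 and 81.6 CPM with Sal003. They rose to 111, 102, 108 and 108 CPM in the Oli_ISR group, 165, 158, 159 and 164 CPM with tunicamycin and 162, 162, 162 and 168 CPM in the Oligo group. Its groups therefore stood in the same order as those of *Hspa9* except for the top pair, which overlapped (difference -0.02, 95% interval -0.11 to 0.067). The step from naive to IL-4/IL-13 was 1.46-fold, and from there to tunicamycin 2.73-fold and to Oligo 2.77-fold. The Oligo group exceeded the Oli_ISR group 1.53-fold (log2 fold change 0.61, SE 0.043, adjusted *P* = 4.00e-11). Over the 24 libraries *Dnaja3* was the gene most like *Hspa9* of all 13678 others tested, and *Hspa9* the gene most like *Dnaja3* (Pearson's r = 0.998 on log2 CPM). This correlation describes libraries that share mice and groups and has no *P* value.

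**Figure D2:**
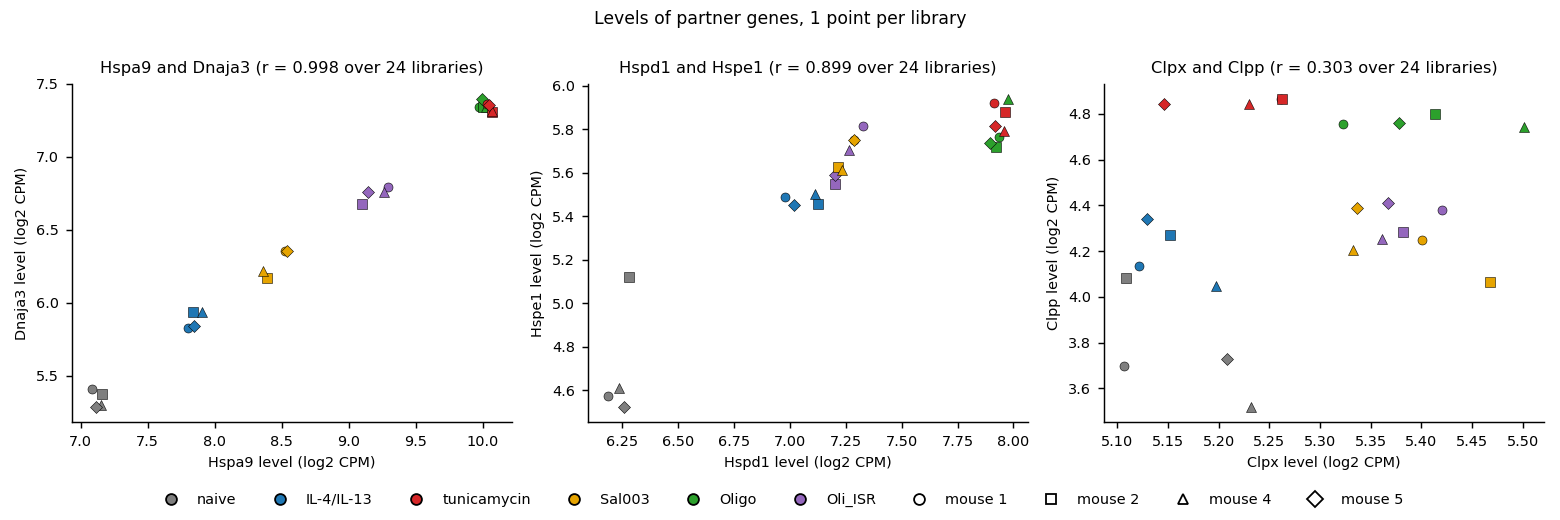
Level of *Dnaja3* against *Hspa9*, *Hspe1* against *Hspd1* and *Clpp* against *Clpx*, in log2 CPM, with 1 point per library, the colour giving the group and the symbol the mouse. The *Hspa9* and *Dnaja3* points lie along a line (r = 0.998), the *Hspd1* and *Hspe1* points along a bent path with the tunicamycin and Oligo libraries to the right (r = 0.899), and the *Clpx* and *Clpp* points are scattered (r = 0.303).

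*Hspd1* and *Hspe1* encode Hsp60 and Hsp10, the barrel and the lid of the chaperonin, and lie head to head on chromosome 1. *Hspd1* ranged over 72.7 to 77.7 CPM in naive BMDM, 126 to 139 CPM with IL-4/IL-13, 149 to 156 CPM with Sal003, 147 to 160.4 CPM in the Oli_ISR group, 238 to 252 CPM in the Oligo group and 241 to 249 CPM with tunicamycin. It rose with the cytokines (log2 fold change 0.82, SE 0.041, adjusted *P* = 7.13e-15) and again with tunicamycin (log2 fold change 0.88, SE 0.04, adjusted *P* = 3.29e-16) and in the Oligo group (log2 fold change 0.87, SE 0.04, adjusted *P* = 1.12e-15). Sal003 and Oli_ISR added 1.15-fold and 1.14-fold to the cytokine level, and both passed the test (adjusted *P* = 2.18e-04 and 2.87e-04). Its groups fell into a low naive level, a middle of IL-4/IL-13, Oli_ISR and Sal003 and a top of Oligo and tunicamycin, and neither Sal003 and Oli_ISR nor Oligo and tunicamycin differed by the test.

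*Hspe1* rose with the cytokines by 0.75 on the log2 scale, beside 0.82 for *Hspd1*, and with tunicamycin by 0.38, beside 0.88. Its values were 23.7, 34.7, 24.3 and 22.9 CPM in naive BMDM, 44.8, 43.8, 45.2 and 43.6 CPM with IL-4/IL-13 and 60.5, 58.8, 55.2 and 56.2 CPM with tunicamycin. Naive mouse 2 stood above the other naive mice, and it still lay below every library of the other groups. Against the cytokines alone, *Hspe1* was 1.3-fold higher with tunicamycin (adjusted *P* = 3.47e-04) and 1.25-fold higher in the Oligo group (adjusted *P* = 0.00231). With Sal003 the rise was 1.16-fold and near the threshold (adjusted *P* = 0.0446), and it was lost without mouse 1, 4 or 5 (adjusted *P* = 0.19, 0.0656 and 0.208) and under DESeq2 (adjusted *P* = 0.0603). The Oli_ISR group did not pass against the cytokines (log2 difference 0.19, 95% interval 0.014 to 0.37), although its libraries did not overlap with them. It passed without mouse 2 (adjusted *P* = 0.00642) and with the compared groups alone (adjusted *P* = 0.0157). No neighbouring pair among tunicamycin, Oligo, Sal003, Oli_ISR and IL-4/IL-13 passed the test for *Hspe1*, whereas IL-4/IL-13 against naive did (adjusted *P* = 9.07e-08).

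The ratio of *Hspd1* to *Hspe1*, with each level divided by the merged exon length of the gene, was 1.46, 1.07, 1.47 and 1.59 in the naive libraries of mice 1, 2, 4 and 5 and 1.34, 1.52, 1.46 and 1.42 with IL-4/IL-13. It was 1.9, 2.02, 2.15 and 2.05 with tunicamycin and 2.15, 2.2, 1.96 and 2.13 in the Oligo group. These 8 libraries lay above all 16 others, since Sal003 and Oli_ISR had means of 1.42 ± 0.0406 and 1.43 ± 0.0606. With the longest transcript as the length, the means were lower throughout, 0.872 with IL-4/IL-13 and 1.23 with tunicamycin, so the ratio has no absolute scale. The ratio is a description and was not tested.

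**Figure D3:**
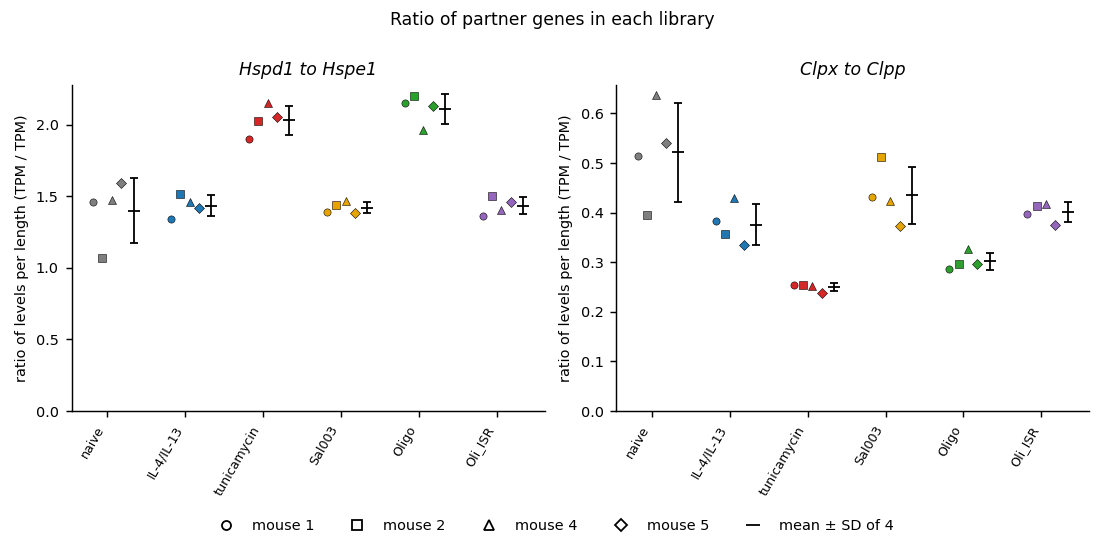
Ratio of *Hspd1* to *Hspe1* and of *Clpx* to *Clpp* in every library, from levels per length, on axes that start at 0, with 1 symbol per mouse and the mean ± SD of 4 libraries. The *Hspd1* to *Hspe1* ratio is near 1.43 in 4 groups and 2.03 and 2.11 in the tunicamycin and Oligo groups, in which the *Clpx* to *Clpp* ratio is lowest.

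The canonical starts of *Hspd1* and *Hspe1* are separated by 107 bases. Both promoters hold a single match to the letters GAANNTTC, a facing pair of heat shock element units that reads the same on both strands. It is 1 site seen from both genes, beginning 40 bases beyond the *Hspd1* start and ending 60 bases before the *Hspe1* start. The site is shown, with the match in capitals, because it is where the letters searched for lie in front of both genes; it is plus strand sequence of the mouse genome build GRCm39 at chr1:55127212-55127241.
Hspd1-Hspe1 site: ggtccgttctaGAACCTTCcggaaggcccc
The same letters occur in 5.27% of the 13632 promoters searched, each taken as the 250 bases before the canonical start of a tested gene. A match is a description of the letters and not a measured binding site.

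*Trap1* encodes the Hsp90 of mitochondria. It was highest with the cytokines alone. Its values were 44.9, 49.8, 47.6 and 49.7 CPM in naive BMDM, 85.8, 86.9, 81.6 and 88.4 CPM with IL-4/IL-13 and 63.4, 61.9, 63.2 and 58.8 CPM with tunicamycin. The Oligo libraries had 75.4, 77.3, 74.4 and 76.9 CPM, the Oli_ISR libraries 79.3 to 81.6 CPM and the Sal003 libraries 80.7 to 85.4 CPM. The rise with the cytokines was 1.78-fold (log2 fold change 0.84, SE 0.04, adjusted *P* = 2.80e-15). With tunicamycin *Trap1* fell by 0.47 on the log2 scale (SE 0.039, adjusted *P* = 6.48e-11) and in the Oligo group by 0.17 (SE 0.039, adjusted *P* = 4.00e-04). In CPM each fall was seen in 4 of 4 mice and without overlap. None of the other 9 genes passed the test downward in those comparisons. Per length, as given below, *Trap1* in the Oligo group overlapped with *Trap1* under the cytokines alone. Tunicamycin lowered it further than Oligo did (difference -0.30, adjusted *P* = 3.64e-07), and both groups stayed above naive BMDM (1.29-fold and 1.58-fold). Sal003 did not pass against the cytokines (adjusted *P* = 0.374), nor did Oli_ISR (log2 difference -0.09, adjusted *P* = 0.0568), which passed under DESeq2 (adjusted *P* = 0.0101). Oli_ISR also passed downward with upper-quartile scaling (adjusted *P* = 0.00714), total counts as library size (0.00154), at least 10 counts in every library (0.0177) and the compared groups alone (0.0335). Sal003 passed downward with total counts as library size (log2 difference -0.14, adjusted *P* = 0.00606).

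*Lonp1* encodes the LON protease of the matrix, which degrades oxidized and surplus proteins. Its values in mice 1, 2, 4 and 5 were 56.9, 64.1, 66.7 and 62.9 CPM in naive BMDM, 59.7, 67.7, 61.1 and 61.8 CPM with IL-4/IL-13 and 83.7, 78.6, 78.9 and 84.0 CPM with Sal003. They were 114, 118, 116 and 119 CPM in the Oli_ISR group, 221, 216, 223 and 224 CPM in the Oligo group and 224, 225, 223 and 216 CPM with tunicamycin. Naive and IL-4/IL-13 libraries overlapped, with a difference near 0 (95% interval -0.097 to 0.094 on the log2 scale, adjusted *P* = 0.983), and no other 2 groups overlapped except tunicamycin and Oligo. Tunicamycin raised *Lonp1* 3.55-fold over the cytokines (log2 fold change 1.83, SE 0.046, adjusted *P* = 1.93e-21), Oligo 3.53-fold (log2 fold change 1.82, SE 0.046, adjusted *P* = 1.54e-20), Oli_ISR 1.86-fold (adjusted *P* = 2.54e-14) and Sal003 1.3-fold (adjusted *P* = 1.83e-07). Between the oligomycin groups it differed the most of the 10 genes, 1.89-fold higher in Oligo (log2 fold change 0.92, SE 0.044, adjusted *P* = 4.86e-14).

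*Trap1*, *Dnaja3* and *Lonp1* thus showed 3 patterns in CPM. *Trap1* rose with the cytokines and fell with tunicamycin and, less, in the Oligo group. *Dnaja3* rose with the cytokines and with the inhibitors, and *Lonp1* rose with the inhibitors while its difference with the cytokines did not pass. The promoters of these genes are printed for that contrast, as the bases directly before the canonical start that lie in no annotated exon, read 5′ to 3′ on the strand of the gene from the GRCm39 genome. They hold none of the 3 motifs searched, so no letters are in capitals.
Trap1 (chr16:3895717-3895966, minus strand): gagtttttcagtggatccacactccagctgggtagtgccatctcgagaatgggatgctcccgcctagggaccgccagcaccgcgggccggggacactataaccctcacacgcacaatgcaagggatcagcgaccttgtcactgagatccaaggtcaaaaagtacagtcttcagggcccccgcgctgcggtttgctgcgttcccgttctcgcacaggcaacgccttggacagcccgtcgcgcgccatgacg
Dnaja3 (chr16:4501677-4501926, plus strand): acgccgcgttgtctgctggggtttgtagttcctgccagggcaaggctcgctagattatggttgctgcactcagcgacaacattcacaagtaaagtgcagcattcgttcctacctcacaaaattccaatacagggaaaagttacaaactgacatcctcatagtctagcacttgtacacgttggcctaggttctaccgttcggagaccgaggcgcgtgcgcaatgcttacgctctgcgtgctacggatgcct
Lonp1 (chr17:56933981-56934181, minus strand): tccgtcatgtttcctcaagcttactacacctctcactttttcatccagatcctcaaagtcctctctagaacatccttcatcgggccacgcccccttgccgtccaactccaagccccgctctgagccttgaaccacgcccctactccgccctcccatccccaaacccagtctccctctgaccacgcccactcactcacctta
The share of G and C was 60.8% before *Trap1*, 51.6% before *Dnaja3* and 56.7% before *Lonp1*. Beside the heat shock pair, the motifs searched on both strands were the composite element of C/EBP and ATF factors, TGATGNAA, and the core of the NRF1 site, GCATGCGC. The first was in front of 0 of the 10 genes and of 2.38% of all promoters, and the second in front of *Clpx*, from base -86, and of 3.17% of all promoters. No match says only that these letters are absent from this window.

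CLPP is the proteolytic barrel of a matrix protease and CLPX the ring that unfolds its substrates. *Clpp* ranged over 11.4 to 16.8 CPM in naive BMDM, 16.4 to 20.2 CPM with IL-4/IL-13, 16.6 to 20.8 CPM with Sal003, 18.9 to 21.2 CPM in the Oli_ISR group, 26.7 to 27.7 CPM in the Oligo group and 28.6 to 29.0 CPM with tunicamycin. It rose 1.35-fold with the cytokines (adjusted *P* = 1.28e-04), where naive mouse 2 overlapped with the cytokine group, and 1.57-fold with tunicamycin and 1.48-fold in the Oligo group beyond that (adjusted *P* = 9.97e-08 and 1.54e-06). Sal003 and Oli_ISR did not pass against the cytokines (95% intervals -0.15 to 0.21 and -0.039 to 0.31). *Clpx* did not pass with the cytokines (log2 difference -0.01, 95% interval -0.11 to 0.081) or with tunicamycin (95% interval -0.02 to 0.17). With total counts as library size it passed upward with tunicamycin (log2 difference 0.12, adjusted *P* = 0.0242). It rose by 1.18-fold with Sal003, 1.19-fold in the Oligo group and 1.17-fold in the Oli_ISR group (adjusted *P* = 1.35e-04, 2.79e-05 and 1.32e-04). *Clpx* was higher in Oligo than with tunicamycin (log2 difference of tunicamycin to Oligo -0.18, adjusted *P* = 0.00135). That call was lost without mouse 5 (adjusted *P* = 0.0636) and with no filter on low counts (adjusted *P* = 0.0802). Per length, the ratio of *Clpx* to *Clpp* was 0.515, 0.395, 0.636 and 0.54 in the naive libraries, 0.383, 0.356, 0.43 and 0.334 with IL-4/IL-13, 0.286, 0.296, 0.327 and 0.297 in the Oligo group and 0.255, 0.254, 0.252 and 0.238 with tunicamycin, so the tunicamycin libraries lay below all others and the Oligo libraries below all but those.

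YME1L and AFG3L2 are ATP-driven proteases of the inner membrane, the first facing the intermembrane space and the second the matrix. *Afg3l2* had 50.4 to 57.8 CPM in naive BMDM, 68.5 to 75.6 CPM with IL-4/IL-13, 94.7 to 109 CPM with tunicamycin and 102 to 106 CPM in the Oligo group. It rose with the cytokines (log2 fold change 0.38, SE 0.051, adjusted *P* = 5.34e-07), with tunicamycin (log2 fold change 0.53, SE 0.05, adjusted *P* = 7.01e-10) and in the Oligo group (log2 fold change 0.55, SE 0.05, adjusted *P* = 6.03e-10), in 4 of 4 mice each. With Sal003 it stayed at 70.7 CPM against 70.9 CPM with the cytokines (95% interval of the log2 difference -0.11 to 0.1). In the Oli_ISR group it did not pass (log2 difference 0.12, adjusted *P* = 0.0568), but it did with the mouse as a block (adjusted *P* = 0.0391) and without mouse 5 (adjusted *P* = 0.0147). *Yme1l1* had 97.6 to 111 CPM in naive BMDM, 104 to 119.8 CPM with IL-4/IL-13, 129 to 137 CPM in the Oligo group and 151 to 166 CPM with tunicamycin. It rose with tunicamycin (log2 fold change 0.50, SE 0.049, adjusted *P* = 1.06e-09) more than in the Oligo group (log2 fold change 0.27, SE 0.049, adjusted *P* = 2.78e-05), and the difference between these groups passed (adjusted *P* = 1.95e-04). The cytokines alone did not pass (log2 difference 0.11, adjusted *P* = 0.0625). They did with the mouse as a block (adjusted *P* = 0.0329), under DESeq2 (adjusted *P* = 0.0265) and with total counts as library size (adjusted *P* = 0.0396). Sal003 and Oli_ISR raised *Yme1l1* 1.16-fold and 1.14-fold (adjusted *P* = 7.70e-04 and 0.00252), the second no longer without mouse 1 (adjusted *P* = 0.0638).

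By count, IL-4/IL-13 against naive, which asks what the cytokines do, passed the test upward for 7 of the 10 genes and downward for 0, against 30.1% of all genes tested higher and 30.4% lower. At an unadjusted *P* under 0.05, 8 were higher and 0 lower, as they were under DESeq2. The 7 were *Hspd1*, *Hspe1*, *Hspa9*, *Trap1*, *Dnaja3*, *Clpp* and *Afg3l2*, and the median log2 fold change of the 10 was 0.49 against -0.023 over all genes. The other comparisons with the cytokine group ask how each inhibitor changed the cytokine-treated state, and they share its 4 libraries. Tunicamycin passed upward for 8 and downward for 1, against 38.7% of all genes tested higher and 37.6% lower, with a median of 0.59 against 0.0066 over all genes. Oligo passed upward for 9 and downward for 1, against 34% of all genes tested higher and 32.2% lower, with a median of 0.56 against 0.006. The downward gene was *Trap1* in both.

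Sal003 passed upward for 7 and downward for 0, against 25.9% of all genes tested higher and 24.6% lower, and Oli_ISR upward for 6 and downward for 0, against 27.9% of all genes tested higher and 26.4% lower. Downward counts at an unadjusted *P* under 0.05 were 0 for Sal003, also by DESeq2, and 1 for Oli_ISR, which DESeq2 also gave. The medians were 0.21 with Sal003 and 0.19 in the Oli_ISR group. With a rise of at least 2.5-fold also required, 3 of the 10 genes were left with tunicamycin and 3 in the Oligo group, *Hspa9*, *Lonp1* and *Dnaja3* in both, where 8.56% and 4.79% of all genes tested rose that far. In the Oli_ISR group *Hspa9* was left, 1 of 10 against 2.94% of all genes, and with Sal003 0 of 10 against 2.68%. For IL-4/IL-13 against naive the count was 0 against 5.39%.

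**Figure D4:**
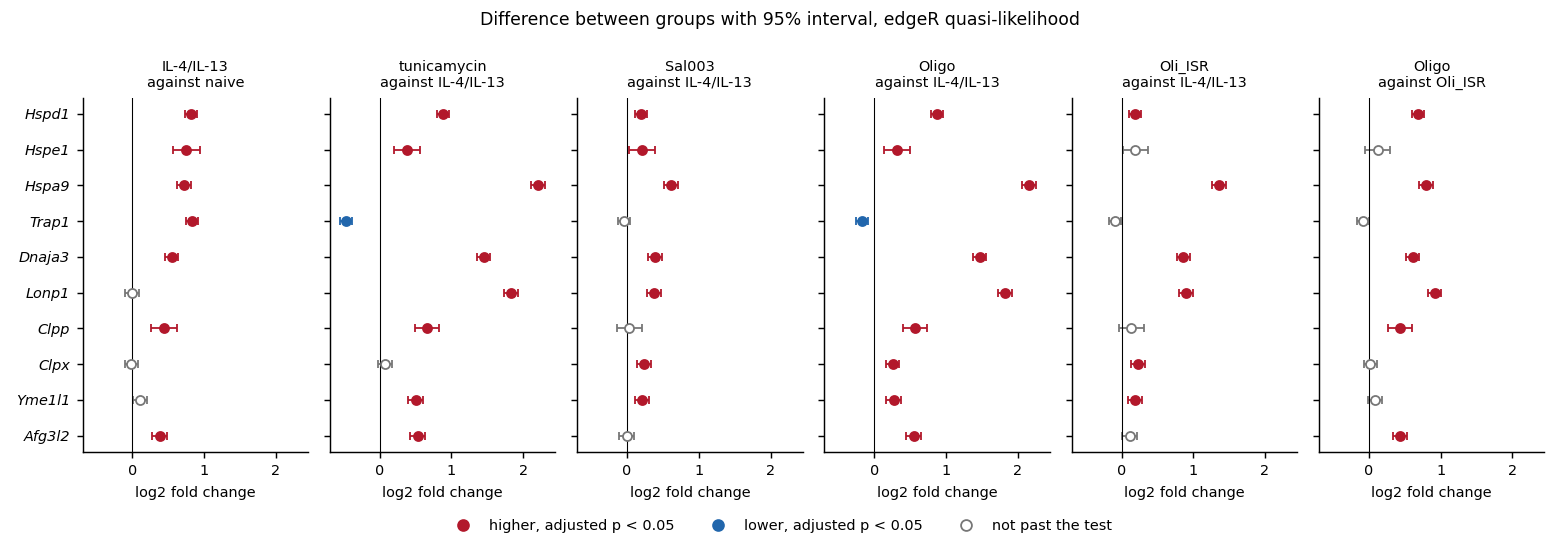
Log2 fold change of each gene in 6 comparisons, as points with 95% intervals from the edgeR fit, filled where the adjusted *P* is under 0.05. *Hspa9*, *Lonp1* and *Dnaja3* lie farthest to the right with tunicamycin and in the Oligo group, *Trap1* lies left of 0 there, and *Lonp1*, *Clpx* and *Yme1l1* are open with IL-4/IL-13 against naive.

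The oligomycin groups differ in ISRIB, by either reading of the labels. Oligo passed above Oli_ISR for 6 genes and below for 0, against 19.9% of all genes tested higher and 21.3% lower; at an unadjusted *P* under 0.05, and by DESeq2, 1 was lower, *Trap1*. The 6 were *Lonp1* (0.92), *Hspa9* (0.80), *Hspd1* (0.68), *Dnaja3* (0.61), *Afg3l2* (0.43) and *Clpp* (0.43), as log2 fold changes, each higher in 4 of 4 mice. The 2 groups did not overlap for these 6, nor for *Trap1*, which was higher in Oligo in 0 of 4 mice. The share of all genes without overlap was not counted. The 4 genes beyond the 6 did not pass. Their 95% intervals were -0.052 to 0.3 for *Hspe1*, -0.071 to 0.12 for *Clpx*, -0.013 to 0.19 for *Yme1l1* and -0.16 to -0.003 for *Trap1*, the last of which was on the other side of 0 with total counts as library size (0.03). With total counts as library size, which moved the median of all genes to 0.11, *Hspe1* (0.24, adjusted *P* = 0.0171), *Clpx* (0.14, 0.0116) and *Yme1l1* (0.20, 5.31e-04) passed as well, so that the count was 9 in place of 6. *Yme1l1* also passed with upper-quartile scaling (adjusted *P* = 0.0274). No gene reached 2.5-fold higher in Oligo, against 1.14% of all genes. The median of the 10 was 0.43 against -0.002 over all genes. Tunicamycin against Oligo passed upward for 1 gene, *Yme1l1*, and downward for 2, *Trap1* and *Clpx*, against 31.4% of all genes tested higher and 32.1% lower. For the other 7 the 95% intervals were -0.076 to 0.087 for *Hspd1*, -0.11 to 0.24 for *Hspe1*, -0.039 to 0.15 for *Hspa9*, -0.11 to 0.067 for *Dnaja3*, -0.082 to 0.098 for *Lonp1*, -0.073 to 0.25 for *Clpp* and -0.12 to 0.083 for *Afg3l2*. None reached 2.5-fold higher, against 5.64% of all genes.

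Against naive BMDM, which share their 4 libraries over these comparisons, Sal003, Oligo and Oli_ISR each passed upward for 10 genes and downward for 0. The background was 31.7% of all genes tested higher and 30.8% lower for Sal003, 35.5% of all genes tested higher and 35.5% lower for Oligo and 32.6% of all genes tested higher and 31.2% lower for Oli_ISR. Tunicamycin passed upward for 9 and downward for 0, against 37.1% of all genes tested higher and 40.5% lower. The remaining gene was *Clpx* (0.06, adjusted *P* = 0.231), which passed without mouse 5 (adjusted *P* = 0.0364) and with total counts as library size (adjusted *P* = 0.0402). No gene was lower at an unadjusted *P* under 0.05 or under DESeq2 in these 4. At 2.5-fold or more, 4 genes were higher with tunicamycin, 1 with Sal003, 4 in the Oligo group and 2 in the Oli_ISR group, against 7.5%, 3.21%, 4.99% and 3.58% of all genes. The fold over naive BMDM of *Hspa9* was 7.61 with tunicamycin, 7.32 in the Oligo group, 4.21 in the Oli_ISR group and 2.52 with Sal003. Next came *Dnaja3*, *Lonp1* and *Hspd1*, at 3.99, 3.55 and 3.25 with tunicamycin.

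Each gene was also set beside the genes whose log2 CPM followed it most closely over the 24 libraries, as a description. After *Dnaja3*, those closest to *Hspa9* were *Eprs1* (r = 0.99), *Ghitm*, *Faf1* and *Aars1*, of which *Eprs1* and *Aars1* encode aminoacyl-tRNA synthetases. *Lonp1* was followed by *Tcea1* (0.988), *Paqr3*, *Entpd5*, *Ghitm* and *Gpbp1*. *Hspd1* was followed by *Nol11* (0.984), *Mettl16*, *Rrs1*, *Utp18* and *Nsun2*, and *Clpp* by *Rrp15* (0.965), *Rrp9*, *Mettl16*, *Nle1* and *Mrto4*. *Nol11*, *Rrs1*, *Utp18*, *Rrp15*, *Rrp9* and *Mrto4* are ribosome assembly genes. *Hspe1* was closest to *Hint1* (0.971), *Ecsit*, *Timm10*, *Crlf2* and *Pebp1*, and *Trap1* to *Fyn* (0.976), *Uqcrc2*, *Rrp8*, *Slc30a4* and *Sf3b4*. *Afg3l2* was closest to *Arhgap12* (0.979), *Yme1l1* to *Tmem33* (0.971) and *Clpx* to *Naglu* (0.93). With the means of the mice taken out, the closest gene was the same for 7 of the 10, all but *Clpp*, *Clpx* and *Yme1l1*.

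Compared with each other per length, as TPM, a share of transcripts scaled like CPM but corrected for length, computed from the counts and merged exon lengths, *Hspa9* was the highest of the 10 in each of the 6 groups, at 132 TPM in naive BMDM, 205 TPM with IL-4/IL-13 and 1069.8 TPM with tunicamycin. *Hspd1* came next with 97.9, 163 and 339 TPM in these groups. *Hspe1* had 71.3, 114 and 167 TPM, and *Trap1* 20.4, 34.5 and 28.1 TPM. In the Oligo group *Trap1* had 34.2 TPM, and its libraries there overlapped with those of IL-4/IL-13. By the longest transcript these 2 groups had 65.5 and 67.9 TPM for *Trap1*, also with overlap. The order of the other genes depended on the length, since merged exons were up to 13865 bases (*Afg3l2*), where the longest transcript had 5064. By the longest transcript *Hspe1* exceeded *Hspd1* in all but the tunicamycin and Oligo groups (153 against 133 TPM with IL-4/IL-13), and *Hspa9* stayed first in the 6 groups. The group means of *Clpx* lay further apart per merged exon length than in CPM. They ran from 17.9 TPM with IL-4/IL-13 to 23.9 TPM in the Oligo group, beside 35.4 and 42.3 CPM.

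The neighbours of these genes in the pathway were counted in 5 lists, and each count stands against the share of all genes tested that passed in the same comparison. These shares were 30.1% higher and 30.4% lower for IL-4/IL-13 against naive, 38.7% higher and 37.6% lower for tunicamycin, 25.9% higher and 24.6% lower for Sal003, 34% higher and 32.2% lower for Oligo and 27.9% higher and 26.4% lower for Oli_ISR against IL-4/IL-13, and 19.9% higher and 21.3% lower for Oligo against Oli_ISR. Of 21 other mitochondrial proteases and quality control genes, 15 of 21 were higher and 1 lower with IL-4/IL-13 against naive, led by *Nln* (1.15 on the log2 scale), *Atad3a* (0.83) and *Phb2* (0.62), a prohibitin. Against the cytokines 11 of 21 were higher and 5 lower with tunicamycin, among them *Parl* (1.00), *Pitrm1* (0.91) and *Clpb* (0.84), which encode a rhomboid protease, a presequence protease and a disaggregase. In the Oligo group 11 of 21 were higher and 3 lower, with *Pitrm1* at 0.72, *Clpb* at 0.67 and *Lactb* at -0.52. The medians of this list were 0.22 with tunicamycin and 0.18 in the Oligo group, against 0.59 and 0.56 for the 10 genes. With Sal003, 9 of 21 were higher and 1 lower (*Clpb* 0.54, *Immp1l* 0.49, *Mipep* 0.41), and in the Oli_ISR group 6 of 21 were higher and 4 lower (*Clpb* 0.47, *Pitrm1* 0.45, *Nln* -0.30), the upward share being near the 27.9% of all genes. *Parl* was 0.71 higher in Oligo than in Oli_ISR, where 9 of 21 were higher and 1 lower in this list.

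Of 22 genes of protein import and its co-chaperones, 14 of 22 were higher and 1 lower with the cytokines, with *Timm8a1* at 2.37, *Tomm40*, the channel of the outer membrane, at 0.94 and *Hscb*, a co-chaperone of iron-sulfur cluster assembly, at -0.78. With tunicamycin 14 of 22 were higher and 4 lower (*Timm21* 0.73, *Pam16* 0.72, *Grpel2* 0.67), and in the Oligo group 8 of 22 were higher and 3 lower (*Hscb* 0.94, *Grpel2* 0.57, *Timm22* -0.39), the latter upward share being near the 34% of all genes. *Grpel2* encodes a nucleotide exchange factor of the matrix Hsp70. Sal003 gave 1 higher and 3 lower of 22, Oli_ISR 3 and 2, and Oligo against Oli_ISR 4 and 1, with medians of -0.014, 0.0043 and 0.10. The median of this list was 0.24 with tunicamycin and 0.06 in the Oligo group.

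The list of mitochondrial stress regulators held 11 genes, of which 10 were tested. With IL-4/IL-13 against naive, 7 were higher and 2 lower, with *Ppargc1b*, the coactivator PGC-1β, at 3.53, *Atf5* at 0.98 and *Cebpb* at -0.43. Tunicamycin gave 7 higher and 2 lower, with *Ddit3*, which encodes CHOP, at 4.21, *Atf4* at 3.01 and *Ppargc1b* at -4.65. The Oligo group gave 6 and 2, with *Ddit3* at 2.80, *Atf5* at 2.43 and *Ppargc1b* at -2.83, and Oli_ISR 6 and 2, with *Atf5* at 2.31, *Ddit3* at 1.93 and *Atf4* at 1.82. Sal003 gave 4 and 2, with *Atf5* at 1.66, *Ppargc1b* at -1.37 and *Ddit3* at 0.97. Between Oligo and Oli_ISR, *Ddit3* differed by 0.88 and *Cebpb* by 0.58, both higher in Oligo, and *Ppargc1b* by -1.15, with 6 higher and 2 lower in all. The medians were 0.19, 0.54, 0.65, 0.30, -0.038 and 0.19 in the order named.

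Chaperones of the cytosol and the ER were counted for contrast. All but 1 of the 15 ER chaperones rose with IL-4/IL-13 (14 higher, 0 lower; *Sdf2l1* 1.34, *Creld2* 1.31, *Pdia4* 1.18), as did 13 of 14 cytosolic heat shock genes tested of 16 listed (*Hsph1* 1.51, *Hspa1a* 1.06, *Bag3* 1.04). With tunicamycin all 15 ER chaperones rose past 2.5-fold, with *Hyou1* at 3.71, *Dnajb9* at 3.67 and *Hspa5*, the ER Hsp70 BiP, at 3.53, and the median was 2.5. In the Oligo group 4 were higher and 9 lower (*Sdf2l1* -2.26, *Calr* -1.41, *Creld2* -1.17), with a median of -0.38. Tunicamycin and Oligo therefore differed for all 15 ER chaperones (median 3.21), while 7 of the 10 mitochondrial genes did not pass between them. Of all 13679 genes tested, 4292 were higher with tunicamycin, 4390 were lower and 4997 did not pass. Among the 7, *Hspa9* and *Clpp* were higher with tunicamycin in 4 of 4 mice without overlap. Not passing therefore does not show equal levels.

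Cytosolic heat shock genes went mostly down with both inhibitors. With tunicamycin 3 of 14 were higher and 9 lower (*Hspa1b* -3.03, *Hspa1a* -2.85, *Hsph1* -0.84) and in the Oligo group 1 of 14 was higher and 9 lower (*Hspa1b* -1.81, *Hspa1a* -1.21, *Bag3* -0.81), with medians of -0.29 and -0.28. In the Oli_ISR group 1 of 14 was higher and 9 lower (*Hspa1b* -0.75, *Hsph1* -0.50, *Bag3* -0.44), and with Sal003 3 of 14 were higher and 5 lower (*Hspa1b* -0.91, *Hspa1a* -0.57, *Hspa8* 0.36). *Hspa1a* and *Hspa1b* are near-identical copies, and how their reads were divided is uncertain. ER chaperones in the Oli_ISR group counted 1 higher and 11 lower (*Sdf2l1* -1.34, *Creld2* -0.83, *Hsp90b1* -0.65), and with Sal003 6 and 5 (*Sdf2l1* -0.72, *P4hb* 0.45, *Dnajb9* -0.34). In Oligo against Oli_ISR, the counts were 4 higher and 5 lower for the ER (*Sdf2l1* -0.91, *Calr* -0.82, *Hyou1* 0.54) and 2 and 5 for the cytosol (*Hspa1b* -1.06, *Hspa1a* -0.77, *Bag3* -0.38).

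**Figure D5:**
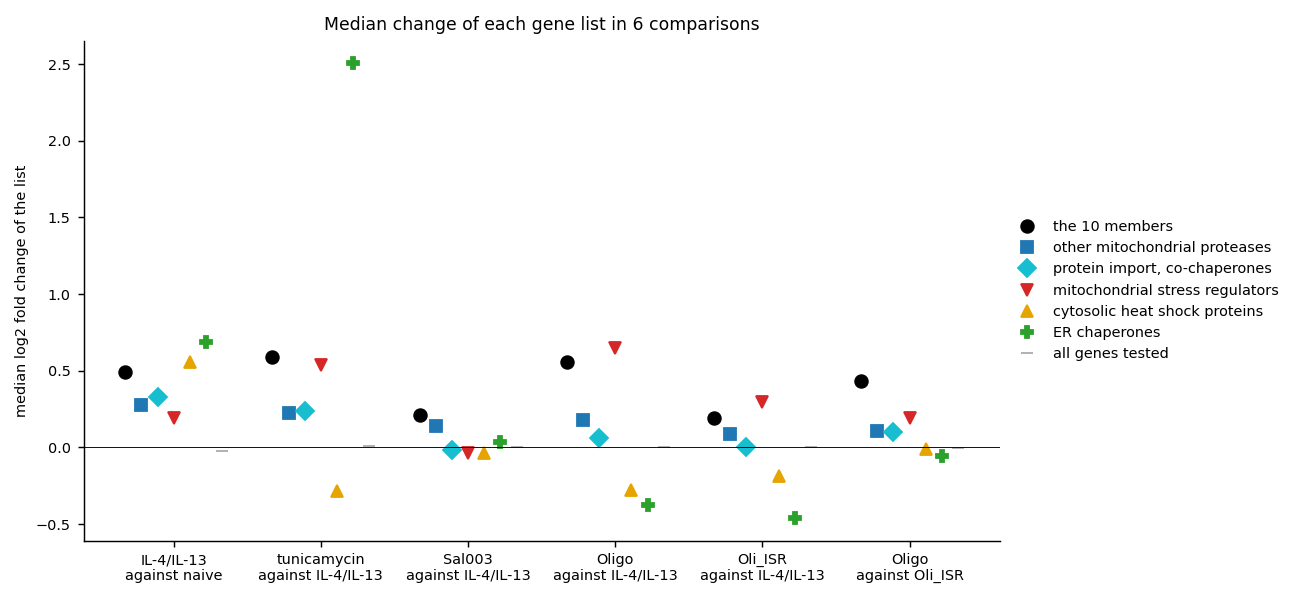
Median log2 fold change of the 10 genes, of the 5 other lists and of all genes tested in 6 comparisons. The 10 genes sit at 0.59 with tunicamycin and 0.56 in the Oligo group, whereas ER chaperones sit at 2.5 and -0.38, and all genes tested stay near 0.

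In GRCm39 the genes span chr1:55116989-55171038 (*Hspd1*), chr1:55127260-55130476 (*Hspe1*), chr18:35070465-35087750 (*Hspa9*), chr16:3856215-3895716 (*Trap1*), chr16:4457853-4528239 (*Dnaja3*), chr17:56921291-56933980 (*Lonp1*), chr17:57296971-57303369 (*Clpp*), chr9:65201540-65239568 (*Clpx*), chr2:23046034-23089281 (*Yme1l1*) and chr18:67535762-67582318 (*Afg3l2*). Their reads can be shared in 2 ways. Near-identical copies elsewhere in the genome, at 95% identity or more, cover 92.2% of the *Hspd1* and 69.3% of the *Hspe1* canonical transcript, at 3 other loci each, and 9.03% of *Clpx* and 4.16% of *Yme1l1*, so the levels of *Hspd1* and *Hspe1* are the least certain. Of all 100-base windows of the canonical transcript, 34.2% for *Hspd1* and 20.4% for *Hspe1* were identical to another locus. The processed pseudogenes among the copies had at most 14 counts in a library. These low counts do not show whether reads matching both places were left out of the gene. Exons of 9 of the genes also overlap another annotated gene, in most cases on the other strand, over 19.5% of the exon bases of *Hspa9*, 16.4% of *Clpp*, 16.3% of *Dnaja3*, 14.7% of *Trap1* and under 10% of the rest, and whether strand was used in counting is not given in the sources used here.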

How the data were processed

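RNA was sequenced from 24 BMDM libraries, 4 mice in each of 6 groups. The deposited values are raw read counts per gene: per the study's methods, the authors trimmed reads with Cutadapt 1.8, aligned them to GRCm39 with STAR 2.7 and counted them with htseq-count 0.9.1. A second table of TPM values (RSEM 1.2.31) was not used, since its header and rows differ in length. From the counts, 5 rows naming no gene were left out (12.7 to 15.2% of a library), and 13679 genes passed filterByExpr. One edgeR 4.0.16 quasi-likelihood model (R 4.3.3, TMM scaling, group as the only term) covered all libraries, with Benjamini-Hochberg adjustment over all genes and a threshold of 0.05. Calls come from this test unless DESeq2 1.42.0 is named. Log2 CPM used a prior count of 2. Samples with the same number came from the same mouse: deviations from the group means correlated with a median r of 0.236 within mice (above 0.1 in 56 of 60 pairs) and -0.0543 between mice (7 of 180). Alternatives were DESeq2, upper-quartile scaling, total counts as library size, no filter on low counts, at least 10 counts in every library, the compared groups alone, the mouse as a replicate block, a minimum of 2.5-fold and leaving out each mouse. The genes and lists were chosen with earlier results of these data known. All 10 genes are named in every comparison, and of each list at most the 3 genes with the largest change among those passing.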

Additional observations from a re-analysis of the deposited data

Results flagged for a closer look

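In 3 of the 60 sets of 4 libraries (10 genes in 6 groups), 1 library stood apart from the others by Dixon's test, a share that chance gives in about 1 of 20 sets. *Dnaja3* in the Oligo group had 168 CPM in mouse 5, against 162.1 to 162.5 CPM in the other mice. *Hspe1* in naive BMDM had 34.7 CPM in mouse 2, against 22.9 to 24.3 CPM. *Lonp1* with tunicamycin had 216 CPM in mouse 5, against 223 to 225 CPM.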

How the results depend on the processing

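Of 1210 log2 fold changes recomputed (110 results under 11 alternatives), 1151 kept their direction and their side of the threshold, 10 lost the call, 21 gained it and 28 changed sign, and none of those that changed sign passed the test either way. The cause of these changes was not tested. With a rise of at least 2.5-fold also required, the counts are read against the shares of all genes rising that far, given above. The genes passing numbered 0 for IL-4/IL-13 against naive, and 3 for tunicamycin, 0 for Sal003, 3 for Oligo and 1 for Oli_ISR against IL-4/IL-13. They numbered 0 for Oligo against Oli_ISR, 4, 1, 4 and 2 for tunicamycin, Sal003, Oligo and Oli_ISR against naive, and 0 for tunicamycin against Oligo. With the mouse as a replicate block, *Yme1l1* passed for IL-4/IL-13 against naive (0.11) and *Afg3l2* for Oli_ISR against IL-4/IL-13 (0.12), and the block changed no other call. Total counts as library size moved the median of all genes for Oligo against Oli_ISR from -0.002 to 0.11 and the count of genes passing there from 6 to 9.

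The values whose sign changed were these, as log2 fold changes. For IL-4/IL-13 against naive, *Lonp1* was 0.023 under DESeq2, 0.0028 with total counts, 0.031 with no filter and between -0.030 and 0.043 when each mouse was left out, and *Clpx* was 0.0083 under DESeq2, 0.019 with no filter and between -0.033 and 0.021 when each mouse was left out. For Sal003 against IL-4/IL-13, *Clpp* was -0.0072 with upper-quartile scaling, -0.066 with total counts and between -0.0091 and 0.11 when each mouse was left out, and *Afg3l2* was 0.00069 with no filter and between -0.032 and 0.015 when each mouse was left out. For Oligo against Oli_ISR, *Trap1* was 0.034 with total counts, and *Clpx* was between -0.017 and 0.069 when each mouse was left out. For tunicamycin against naive, *Clpx* was -0.0072 with upper-quartile scaling. For tunicamycin against Oligo, *Hspd1* was -0.037 with upper-quartile scaling, -0.013 with at least 10 counts in every library and between -0.0069 and 0.051 when each mouse was left out, and *Dnaja3* was 0.017 with no filter and between -0.018 and 0.018 when each mouse was left out. There *Lonp1* was -0.034 with upper-quartile scaling, -0.011 with at least 10 counts in every library and between -0.0084 and 0.061 when each mouse was left out, and *Afg3l2* was 0.019 with no filter and between -0.040 and 0.054 when each mouse was left out.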
